A study of Mus musculus with 10 samples.

Results

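The insulin-like growth factor (IGF) genes described here are 10 genes taken by symbol from the count table of an RNA-seq study of muscle satellite cells (MuSCs), the stem cells of skeletal muscle. They are the ligands Igf1 and Igf2, the receptors Igf1r and Igf2r, the binding proteins Igfbp2, Igfbp4, Igfbp5 and Igfbp7, and the adaptors Irs1 and Irs2. All 10 symbols were found among the 24608 symbols of the table, and all 10 had a count in at least 1 library. Of these, 7 genes had enough counts to be tested, and Igf2, Igfbp2 and Irs1 did not.

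MuSCs came from adult C57BL6 mice that all carried the tamoxifen-inducible Cre allele Pax7CreERT2/+ and the Rosa26YFP reporter. Control mice were Trpm7+/+, and Trpm7 cKO mice were Trpm7flox/flox, so that Trpm7, a channel that carries Mg2+, was deleted in cells with Pax7-driven Cre. All mice received tamoxifen (TMX) on consecutive days and an injury of the muscle by cardiotoxin (CTX). At 3 days post-injury, 3000 cells were sorted into each of 5 libraries per genotype, and the 3′ ends of their transcripts were sequenced. Cre acts only in cells that use the Pax7 promoter. Trpm7 itself was at 76.9 ± 9.97 normalized CPM in control and 71.4 ± 22.0 in Trpm7 cKO libraries (SD, n = 5 each), a difference that did not pass the edgeR test (log2 fold change -0.09, adjusted p = 0.723). In other assays, the paper reports the deletion from Trpm7 mRNA in freshly isolated MuSCs, from PCR products and from TRPM7 staining of MuSCs on myofibers. Which part of Trpm7 is deleted is not given in the sources used here. Whether counts from the 3′ ends of its transcripts report the deletion was not tested.

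IGF1 and IGF2 bind the tyrosine kinase IGF1R, which phosphorylates the adaptors IRS1 and IRS2 and thereby engages PI3K, AKT and mTOR, while AKT keeps FOXO transcription factors out of the nucleus. IGF2R lacks a kinase, takes IGF2 up for degradation and carries lysosomal enzymes. Secreted binding proteins hold most of the IGF outside cells and are cut by proteases that release it. In injured muscle, IGF1 is known to be made by macrophages, fibroadipogenic progenitors and muscle cells, and it drives growth of myogenic cells.

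A count here is 1 molecule, since reads with the same unique molecular identifier (UMI) were merged. Control libraries held 914361 to 1097709 counts and Trpm7 cKO libraries 205986 to 581121, with no overlap. CPM are counts scaled to a common total for every library, and normalized CPM also use edgeR's TMM factors. A gene was tested when it reached about 13.4 CPM in enough libraries, which 7753 genes did. Adjusted p-values come from edgeR's quasi-likelihood fit over these 7753 genes, and log2 fold changes are Trpm7 cKO over control, with a standard error (SE) and a 95% confidence interval (CI). A gene past both thresholds had an adjusted p-value below 0.05 and a log2 fold change above 1.5 or under -1.5. Exact permutation tests were two-sided over all ways to assign 5 of the 10 libraries to a genotype and cannot go below p = 0.00794. All of these p-values measure the spread between libraries, and the labels do not say that each library came from its own animal.

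The libraries also held transcripts of other cell types. For uninjured muscle, the methods describe a sort of CD106-positive cells with antibodies to Sca-1, CD45 and CD31, a gate that would remove leukocytes and endothelial cells, and a sort on YFP is also described. For the cells sequenced here, the paper points to a sorting profile of YFP-positive MuSCs. Whether the antibodies were also used on this injured muscle is not given in the sources used here. Ptprc, which encodes CD45, was at 4.02 to 15.5 normalized CPM in control and 25.8 to 97.8 in Trpm7 cKO libraries, and Pecam1, which encodes CD31, at 0 to 17.4 and 29.2 to 143.

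Satellite cell markers summed to 3446 to 3989 normalized CPM in control and 3301 to 5444 in Trpm7 cKO libraries, with overlap. Of 19 tested, 10 were higher, against 24.6% of all genes tested, 4 were lower, against 24.1%, and 5 did not pass the test. Pax7 was higher, at 166 to 259 normalized CPM in control and 265 to 557 in Trpm7 cKO libraries, whereas Met was lower, at 159 to 218 and 22.1 to 81.2, and Itga7 was lower, at 353 to 425 and 215 to 292. The summed level of 20 leukocyte markers was 251 to 434 normalized CPM in control and 1216 to 4994 in Trpm7 cKO libraries. Of these markers, 17 of 17 tested were higher in Trpm7 cKO, against 24.6% of all genes tested. Several markers entered the test through the Trpm7 cKO libraries, so that the filter partly sets these counts of tested markers. The leukocyte markers Cd68 and Adgre1 and the endothelial marker Cdh5 had 0 of 5 control libraries above 13.4 CPM. Ptprc and Pecam1 had 1, and all of these had 5 of 5 Trpm7 cKO libraries above it. The summed levels include markers that were not tested. Endothelial markers summed to 7.51 to 82.2 against 153 to 800.2 normalized CPM (4 of 4 tested higher), and pericyte and smooth muscle markers to 423 to 679 against 1269 to 1671 (3 of 3 tested higher). Fibroadipogenic markers overlapped, at 2844 to 4754 against 3533 to 6471 normalized CPM, with 6 of 8 tested genes higher and 1 lower. Most of this sum came from genes other than Dcn and Pdgfra. Dcn was higher, at 27.8 to 49.2 against 44.2 to 210 normalized CPM, with overlap (edgeR adjusted p = 0.0018). Pdgfra, too low to test, was at 0 to 2.32 against 3.65 to 28.2 normalized CPM. Erythroid markers summed to 1.99 to 178 normalized CPM in control and 146 to 3274 in Trpm7 cKO libraries (3 of 3 tested higher), with overlap through control replicate 5 and Trpm7 cKO replicate 1. Of the listed markers of these types, Pi16, a fibroadipogenic marker, was the 1 gene at 0 in every control library, and none was at 0 in every Trpm7 cKO library. Because the samples are bulk, fewer cells of a type and less RNA per cell cannot be told apart, and the part of these other cells in the results on IGF genes was not tested.

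Relative to the other transcripts of a library, tested IGF genes were more often higher than lower in Trpm7 cKO libraries. Counted per 3000 sorted cells, in contrast, 2 were higher and 3, with Igfbp2, lower. Of the 7 tested genes, 5 were higher at an adjusted p-value below 0.05 (Igf1, Igf1r, Igfbp4, Igfbp7 and Irs2), against 24.6% of all genes tested. Igf2r was lower, against 24.1% of all genes, and Igfbp5 did not pass the test. Igf1, Igfbp7, Irs2 and Igfbp4 were past both thresholds, against 8.49% of all genes higher, and no tested IGF gene was past both thresholds lower, against 3.53%. The genotypes did not overlap for the 5 higher genes, against 16.6% of all genes, and for none of the tested genes in the lower direction, against 17.9%. The median log2 fold change of the 7 tested genes was 1.52, beside -0.006 for all genes. These 7 are the genes that passed the filter, and Igf1 did so with only 3 of 5 control libraries above 13.4 CPM but all 5 Trpm7 cKO libraries. Igfbp2, lower in Trpm7 cKO without overlap, was left out, with 4 control and 0 Trpm7 cKO libraries above 13.4 CPM. The counts and median given here therefore do not include it.

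**Figure D1:**
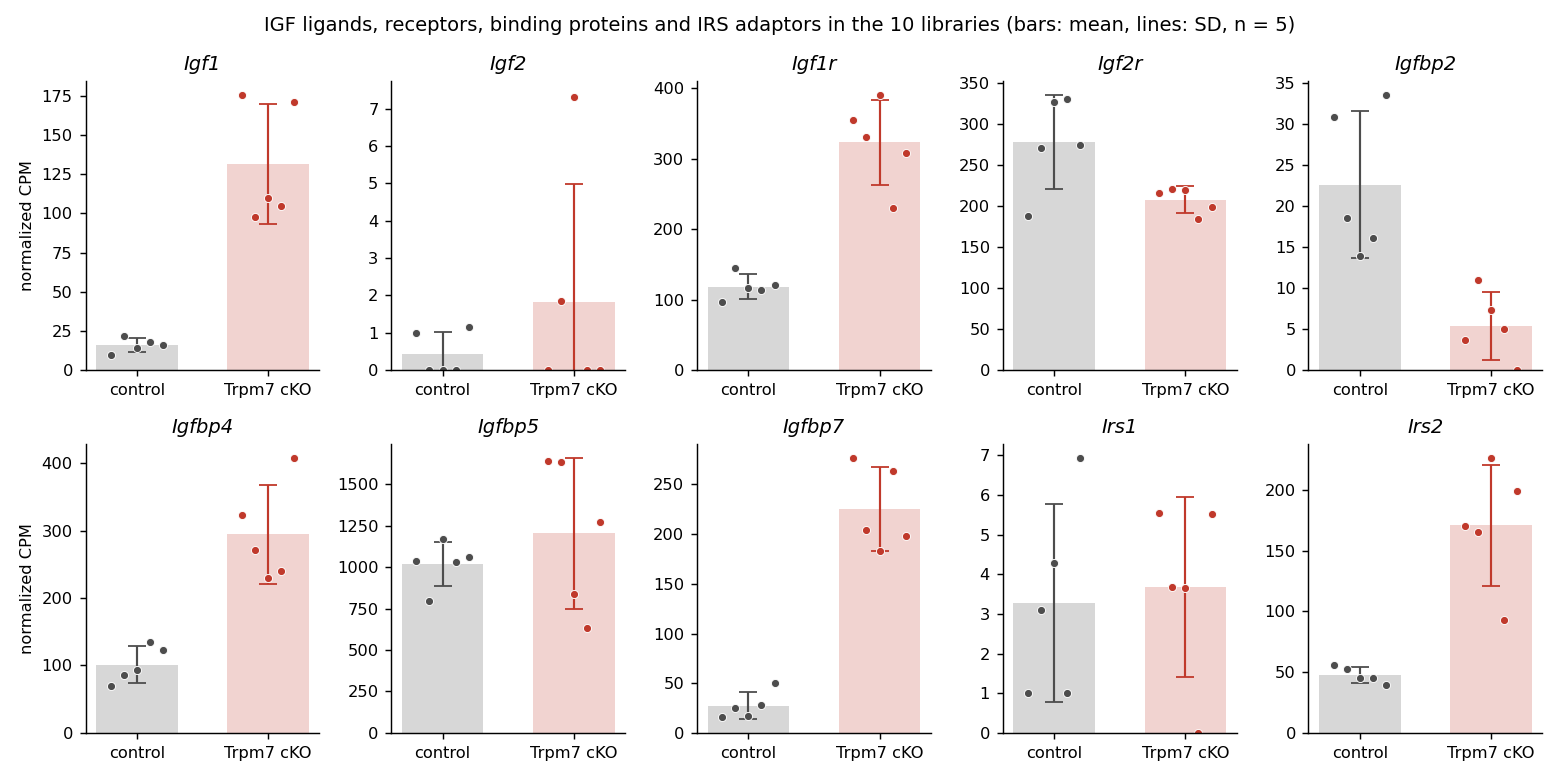
Normalized CPM of the 10 IGF genes in 5 control (grey) and 5 Trpm7 cKO (red) libraries. Bars show the mean, lines the SD and points the libraries, and each panel has its own axis from 0. The points do not overlap for Igf1, Igf1r, Igfbp4, Igfbp7 and Irs2, all higher in Trpm7 cKO, nor for Igfbp2, which was at 0 to 11.04 in Trpm7 cKO and at 13.9 to 33.6 in control libraries.

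The scale on which levels were compared matters for the direction of some of these genes. Scaled on satellite cell markers in place of TMM, the median of all genes moved by -0.28 on the log2 scale, and 1216 genes were higher and 2503 lower at an adjusted p-value below 0.05, beside 1908 and 1866 with TMM. Counted per 3000 sorted cells, with no scaling for depth, the median moved to -1.17 and 295 genes were higher and 5270 lower. On that scale only Igf1 and Igfbp7 were still higher among the IGF genes, at log2 fold changes of 1.83 (adjusted p = 2.4e-05) and 1.99 (adjusted p = 3.4e-06), and Igf2r, Igfbp5 and Igfbp2 were lower. Each of these genes is given below relative to the other transcripts of its library.

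Igf1, the growth factor ligand of IGF1R, was 8.01-fold higher in Trpm7 cKO libraries. Its counts were 10, 21, 13, 18 and 14 in control replicates 1 to 5 and 95, 53, 30, 63 and 31 in Trpm7 cKO replicates 1 to 5. Even the shallowest Trpm7 cKO libraries held more Igf1 molecules than any control library, although they were a fraction of the depth. After normalization, this was 15.97 ± 4.40 CPM in control and 132 ± 38.3 CPM in Trpm7 cKO libraries (SD, n = 5 each), with Trpm7 cKO replicates 1 and 5 at 176 and 171 CPM and the other three between 97.5 and 109.6. This gave a log2 fold change of 3.00 (SE 0.24, CI 2.51 to 3.50, adjusted p = 1.6e-08), with an exact permutation p of 0.00794.

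Markers of leukocytes moved with Igf1. The ratio of Igf1 to the summed leukocyte markers was 0.0311 to 0.0720 in control and 0.0209 to 0.0802 in Trpm7 cKO libraries, so that the genotypes overlapped, with means of 0.0470 and 0.0469. Within the Trpm7 cKO libraries the order was not the same, since replicate 4 had the highest leukocyte sum and was the fourth in Igf1, whereas replicate 1 was highest in Igf1 and the fourth in the leukocyte sum. Relative to the summed fibroadipogenic markers, Igf1 did not overlap, at 0.00292 to 0.00763 in control and 0.0197 to 0.0329 in Trpm7 cKO libraries. Dcn and Pdgfra make up little of that sum. With the mean leukocyte marker level as a covariate, the log2 fold change of Igf1 was 2.48 (SE 0.63, adjusted p = 0.021). All 17 tested leukocyte markers were higher in Trpm7 cKO without overlap, so that this covariate differs between genotypes in every library. A fit with both terms can hardly separate them, here or for the genes below. The plot of Igf1 and Igfbp7 against markers shows these libraries one by one.

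**Figure D2:**
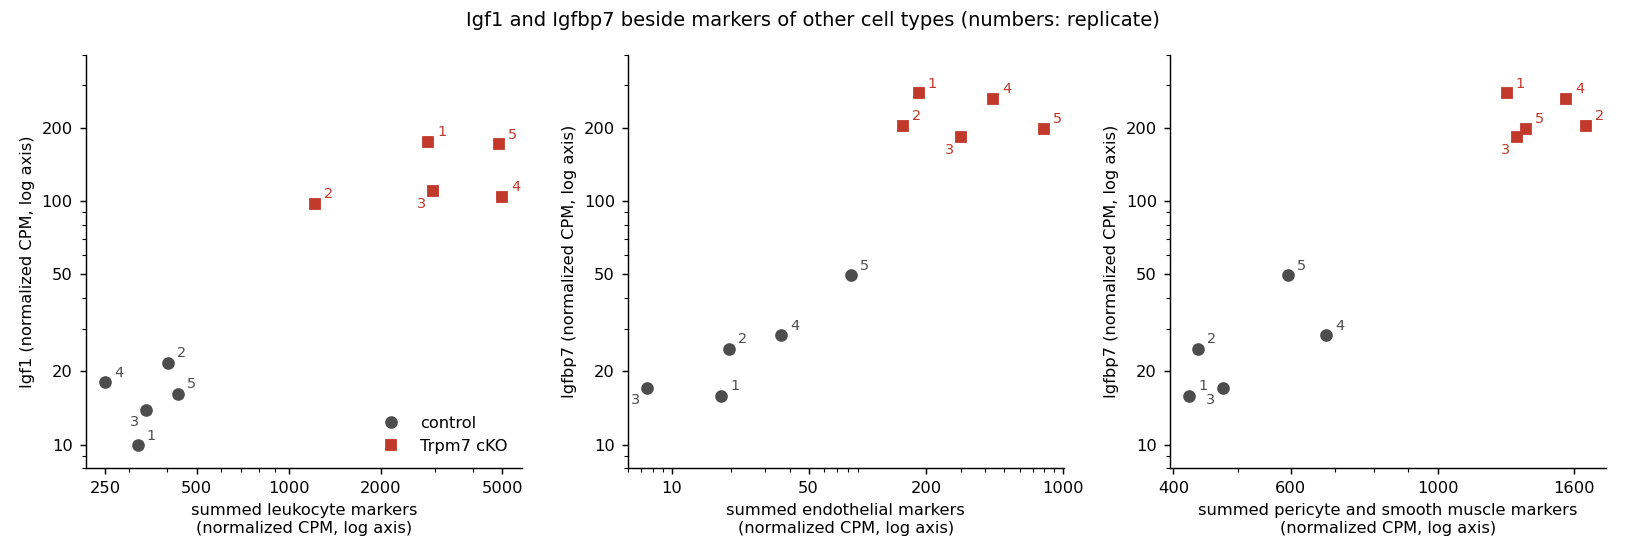
Normalized CPM of Igf1 against summed leukocyte markers, and of Igfbp7 against summed endothelial markers and against summed pericyte and smooth muscle markers, all on log axes, in control (circles) and Trpm7 cKO (squares) libraries numbered by replicate. In each panel the 5 Trpm7 cKO libraries lie above and to the right of the 5 control libraries, and within a genotype the order on the axes differs.

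The Igf1 gene lies on chromosome 10, from 87858265 to 87937042 on the plus strand (GRCm38, GENCODE M21). No other gene covers the last part of its longest transcript, and none of its final 500 bases is shared with another gene in matches of 31 bases. The 250 bases before its RefSeq start (GRCm38.p6) are shown because Igf1 is the ligand that rose; they lie inside the gene as GENCODE draws it. Capitals mark an E-box CAGCTG, the form that MyoD and related factors bind, and CCAAT, here read from the other strand as ATTGG. Searched on both strands, CAGCTG occurs in 13.0% and CCAAT in 33.9% of the 32851 windows of this length.
Igf1, chr10:87860861-87861110, plus strand: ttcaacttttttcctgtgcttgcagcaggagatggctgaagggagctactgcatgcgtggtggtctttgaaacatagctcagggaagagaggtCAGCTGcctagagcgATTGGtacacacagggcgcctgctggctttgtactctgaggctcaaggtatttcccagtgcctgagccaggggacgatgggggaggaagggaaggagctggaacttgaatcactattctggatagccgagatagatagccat

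Igf2, the second ligand and a fetal growth factor, was at the floor. Its counts were 1, 0, 0, 0 and 1 in control replicates 1 to 5 and 0, 1, 2, 0 and 0 in Trpm7 cKO replicates 1 to 5. In all, 2 molecules per 5039727 control counts gave 0.397 CPM (exact Poisson 95% interval 0.0481 to 1.43), and 3 per 2140979 Trpm7 cKO counts gave 1.40 CPM (0.289 to 4.09), intervals that cover counting error only. The ratio of Igf2 to Igf1 counts was at most 0.100 in any library, and no difference between genotypes was detectable at this depth. The Igf2 gene lies on chromosome 7, from 142650766 to 142666816 on the minus strand, and all of its final 500 bases are also annotated as Gm49394 on the same strand. A counter that sets aside reads on 2 genes would drop Igf2 reads there, and the setting is not given in the sources used here, so that the low count of Igf2 is uncertain.

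Igf1r, the kinase receptor through which both ligands act, rose 2.71-fold. Its counts were 97, 141, 109, 113 and 105 in control and 192, 180, 107, 139 and 56 in Trpm7 cKO replicates 1 to 5. The normalized level was 119 ± 17.7 CPM in control and 323 ± 60.2 CPM in Trpm7 cKO libraries (SD, n = 5 each), and the lowest Trpm7 cKO library, replicate 4 at 230.3 CPM, was above the highest control library at 146 CPM. The log2 fold change was 1.44 (SE 0.16, CI 1.101 to 1.77, adjusted p = 7.1e-07, exact permutation p = 0.00794), just under the threshold of 1.5, which it passed without control replicate 2 or without Trpm7 cKO replicate 4 (1.53 in both fits). Igf1r lies on chromosome 7, from 67952827 to 68233668 on the plus strand.

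The insulin receptor Insr, which pairs with IGF1R in hybrid receptors, was named for comparison and did not pass the test, with a log2 fold change of 0.46 (CI -0.15 to 1.06, adjusted p = 0.205). There were 5.74 to 9.42 Igf1r counts per Insr count in control libraries and 9.33 to 35.7 in Trpm7 cKO libraries, where the highest ratio, in replicate 3, rests on 3 Insr counts. The ranges overlap at control replicate 4 and Trpm7 cKO replicate 5. A count ratio within a library does not depend on how libraries are scaled.

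Igf2r, the receptor that clears IGF2 and sorts lysosomal enzymes, was 1.34-fold lower in Trpm7 cKO libraries. The counts were 189, 262, 304, 329 and 237 in control and 117, 120, 60, 111 and 36 in Trpm7 cKO replicates 1 to 5. After normalization the Trpm7 cKO libraries lay close together, at 184 to 221 CPM, and 4 of 5 control libraries lay above all of them, at 270.5 to 330.3 CPM, whereas control replicate 1, at 188 CPM, lay within their range. The log2 fold change was -0.42 (SE 0.16, CI -0.75 to -0.09, adjusted p = 0.034, exact permutation p = 0.0397). This call was lost without control replicate 2, 3, 4 or 5 and without Trpm7 cKO replicate 4 (adjusted p between 0.051 and 0.094, log2 fold change between -0.42 and -0.35). It was also lost with limma-voom (adjusted p = 0.052) and with the leukocyte covariate, where the value turned to 0.063 (adjusted p = 0.97).

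The order of both receptors differed between genotypes. There were 0.343 to 0.538 Igf1r counts per Igf2r count in control libraries and 1.25 to 1.78 in Trpm7 cKO libraries, a ratio chosen after its values were seen. The 2 genotypes did not overlap, and Igf2r was the more abundant receptor transcript in all 5 control libraries and Igf1r in all 5 Trpm7 cKO libraries. Igf2r lies on chromosome 17, from 12682406 to 12769664 on the minus strand.

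Irs2, an adaptor that couples IGF1R and the insulin receptor to PI3K, rose 3.46-fold. Control replicates 1 to 5 held 56, 51, 42, 45 and 34 counts, and Trpm7 cKO replicates 1 to 5 held 92, 90, 62, 56 and 36. Normalization put this at 47.6 ± 6.55 CPM in control and 171 ± 49.99 CPM in Trpm7 cKO libraries (SD, n = 5 each), with the lowest Trpm7 cKO library, replicate 4 at 92.8 CPM, above the highest control library at 55.7. Irs2 thus had a log2 fold change of 1.79 (SE 0.20, CI 1.37 to 2.21, adjusted p = 8.2e-07, exact permutation p = 0.00794). Irs2 lies on chromosome 8, from 10984681 to 11008458 on the minus strand. The 250 bases before its RefSeq start, which lies upstream of the gene as GENCODE draws it, are shown for comparison with those of Igf1. Capitals mark 2 CCAAT boxes and the GC box GGGCGG, a motif that 32.7% of windows hold.
Irs2, chr8:11008930-11009179, minus strand: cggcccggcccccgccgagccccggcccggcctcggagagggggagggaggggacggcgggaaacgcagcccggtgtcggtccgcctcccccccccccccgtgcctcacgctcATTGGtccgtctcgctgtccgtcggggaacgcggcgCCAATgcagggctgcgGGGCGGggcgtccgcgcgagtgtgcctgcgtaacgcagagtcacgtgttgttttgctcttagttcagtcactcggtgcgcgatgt

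Irs1, the other IRS adaptor of these cells, was too low to test. Its counts were 1, 3, 4, 1 and 6 in control and 3, 2, 1, 0 and 1 in Trpm7 cKO replicates 1 to 5. Summed counts gave 2.98 CPM (exact Poisson 95% interval 1.67 to 4.91) in control and 3.27 CPM (1.31 to 6.74) in Trpm7 cKO libraries, and without the filter the log2 fold change was -0.12 (CI -1.57 to 1.32, adjusted p = 0.912). Irs2 counts exceeded Irs1 counts in all 10 libraries. Irs1 lies on chromosome 1, from 82233101 to 82291416 on the minus strand, and 97.7% of the 31-base stretches in its final 500 bases are annotated on the opposite strand as Gm9747, so that its low count is uncertain where counting did not use strand.

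Igfbp5, a binding protein of developing and regenerating muscle, had the highest level of the IGF genes in both genotypes, and its change did not pass the test. Control replicates held 1043, 774, 1089, 1026 and 919 counts and Trpm7 cKO replicates 888, 888, 229, 382 and 231. The normalized level was 1019.6 ± 135 CPM in control and 1204 ± 459 CPM in Trpm7 cKO libraries (SD, n = 5 each). Trpm7 cKO replicates 1, 2 and 5 lay above all control libraries, at 1641, 1634 and 1275 CPM, and replicate 4, at 633 CPM, lay below all of them. The log2 fold change was 0.24 (SE 0.22, CI -0.22 to 0.70, adjusted p = 0.386, exact permutation p = 0.381). Scaled on satellite cell markers it was -0.11 (adjusted p = 0.678), and counted per 3000 sorted cells it was -0.89 (adjusted p = 0.025). Igfbp5 lies on chromosome 1, from 72857932 to 72874884 on the minus strand.

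Igfbp4, a soluble binding protein that holds IGF away from its receptor, rose 2.86-fold. The counts were 70, 83, 87, 135 and 106 in control and 175, 147, 63, 145 and 74 in Trpm7 cKO replicates 1 to 5. This was 101 ± 27.1 normalized CPM in control and 295 ± 73.2 in Trpm7 cKO libraries (SD, n = 5 each), and the highest control library, at 136 CPM, was below the lowest Trpm7 cKO library, at 230.2 CPM. The log2 fold change of 1.52 (SE 0.19, CI 1.12 to 1.92, adjusted p = 2.8e-06, exact permutation p = 0.00794) was just over the threshold of 1.5. It lay at 1.40 to 1.48, under that threshold, without control replicate 1, 2 or 3 and without Trpm7 cKO replicate 1 or 5. With the leukocyte covariate it was 1.51 with a larger SE of 0.56 and no longer passed the test (adjusted p = 0.122).

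Per unit of summed fibroadipogenic markers, a sum to which Dcn and Pdgfra add little, Igfbp4 did not overlap between genotypes. It was at 0.0204 to 0.0375 in control and 0.0454 to 0.0786 in Trpm7 cKO libraries. Per unit of endothelial markers the genotypes overlapped, at 1.49 to 12.4 in control and 0.510 to 1.77 in Trpm7 cKO libraries. The highest control ratio, in replicate 3, rests on an endothelial sum of 7.51 CPM and is imprecise. The gene lies on chromosome 11, from 99041244 to 99054392 on the plus strand. Of the 31-base stretches in its final 500 bases, 36.4% also occur in other transcripts, so that some of its reads may not have been assigned. Its promoter window is the only one among the IGF genes with the TATA box TATAAA, in capitals, which 12.4% of windows hold.
Igfbp4, chr11:99040994-99041243, plus strand: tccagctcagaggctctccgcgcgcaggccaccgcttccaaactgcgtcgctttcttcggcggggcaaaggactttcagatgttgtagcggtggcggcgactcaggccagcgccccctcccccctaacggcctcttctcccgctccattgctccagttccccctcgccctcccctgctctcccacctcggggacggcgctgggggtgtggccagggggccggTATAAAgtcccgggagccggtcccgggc

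Igfbp7, a matrix-bound relative that binds IGF weakly and is well known from blood vessels, was 8.47-fold higher in Trpm7 cKO libraries. It was counted 16, 24, 16, 28 and 43 times in control and 150, 111, 50, 159 and 36 times in Trpm7 cKO replicates 1 to 5. The normalized level was 27.1 ± 13.6 CPM in control and 225 ± 42.2 CPM in Trpm7 cKO libraries (SD, n = 5 each). Control replicate 5, at 49.8 CPM, was the highest of its genotype and remained below the lowest Trpm7 cKO library, replicate 3 at 183 CPM. The log2 fold change was 3.08 (SE 0.24, CI 2.58 to 3.58, adjusted p = 1.8e-08, exact permutation p = 0.00794). With the leukocyte covariate it was 2.64 (SE 0.61, adjusted p = 0.013). The changes of Igfbp7 and Igf1 could not be ranked, since that of Igf1 was larger without control replicate 2 (3.15 against 3.06), control replicate 3 (2.948 against 2.943) or Trpm7 cKO replicate 4 (3.07 against 3.01).

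Control replicate 5 also had the highest endothelial marker sum of its genotype, at 82.2 CPM. The ratio of Igfbp7 to endothelial markers overlapped between genotypes, at 0.606 to 2.29 in control and 0.248 to 1.52 in Trpm7 cKO libraries. The highest control ratio, in replicate 3, rests on an endothelial sum of 7.51 CPM and is imprecise. Relative to pericyte and smooth muscle markers Igfbp7 did not overlap, at 0.0362 to 0.0838 in control and 0.122 to 0.218 in Trpm7 cKO libraries. Igfbp7 lies on chromosome 5, from 77349240 to 77408041 on the minus strand, and 10% of its final 31-base stretches run antisense to Polr2b. Its promoter window holds 4 GC boxes, in capitals, 1 of them read from the other strand as CCGCCC.
Igfbp7, chr5:77408046-77408295, minus strand: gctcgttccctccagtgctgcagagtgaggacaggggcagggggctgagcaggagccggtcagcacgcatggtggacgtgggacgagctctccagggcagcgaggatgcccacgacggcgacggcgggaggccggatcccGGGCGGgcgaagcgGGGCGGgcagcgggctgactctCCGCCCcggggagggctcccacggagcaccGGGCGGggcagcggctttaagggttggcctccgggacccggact

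Igfbp2, a circulating binding protein that is abundant in fetal tissues, was lower in Trpm7 cKO libraries. Its counts were 31, 18, 13, 16 and 29 in control and 2, 6, 2, 3 and 0 in Trpm7 cKO replicates 1 to 5. Igfbp2 was at 22.6 ± 8.97 normalized CPM in control and 5.40 ± 4.11 in Trpm7 cKO libraries (SD, n = 5 each), and every Trpm7 cKO library was below every control library (exact permutation p = 0.00794). Only 4 libraries, all control, reached 13.4 CPM, so that the gene was left out of the main fit. Without a filter its log2 fold change was -2.05 (SE 0.41, CI -2.86 to -1.25, adjusted p = 7.3e-06), and over the 9 fits that kept it the value lay between -2.98 and -1.71, with adjusted p-values of at most 0.00573. Igfbp2 lies on chromosome 1, from 72824503 to 72852474 on the plus strand, next to Igfbp5. The window before the first of its RefSeq starts holds 3 GC boxes, in capitals, and like that of Igfbp7 no CCAAT or TATA box.
Igfbp2, chr1:72824230-72824479, plus strand: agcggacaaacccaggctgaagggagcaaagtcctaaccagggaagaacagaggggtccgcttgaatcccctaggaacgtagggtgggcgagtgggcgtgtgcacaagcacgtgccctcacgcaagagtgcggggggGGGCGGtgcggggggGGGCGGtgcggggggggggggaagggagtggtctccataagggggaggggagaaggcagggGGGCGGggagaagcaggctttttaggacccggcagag

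None of the promoter windows of the 10 IGF genes holds GTAAACA, a core motif of FOXO factors that 3.17% of all windows hold. These matches describe the letters of the windows and do not show binding.

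Because the binding proteins changed unequally, their make-up differed between genotypes. Of the counts of Igfbp2, Igfbp3, Igfbp4, Igfbp5, Igfbp6 and Igfbp7 together, Igfbp5 took 83.5% ± 3.66 in control and 66.0% ± 8.69 in Trpm7 cKO libraries (SD, n = 5 each). Igfbp4 took 8.30% ± 1.92 and 17.1% ± 3.65, and Igfbp7 2.22% ± 1.00 and 13.6% ± 5.06. For each of these 3 genes the genotypes did not overlap, and Trpm7 cKO replicate 4 had the lowest share of Igfbp5, at 52.9%, and the highest of Igfbp7, at 22.0%.

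For Igfbp2 the share was 1.05% to 2.59% in control libraries, and it did not exceed 0.560% in any Trpm7 cKO library. There were 7.60 to 14.9 Igfbp5 counts per Igfbp4 count in control libraries and 2.63 to 6.04 in Trpm7 cKO libraries. Summed over the 6 genes, binding proteins stood at 987 to 1334 normalized CPM in control and 1196 to 2282 in Trpm7 cKO libraries, with overlap. These shares are descriptions with no test, and they do not depend on how libraries are scaled.

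**Figure D3:**
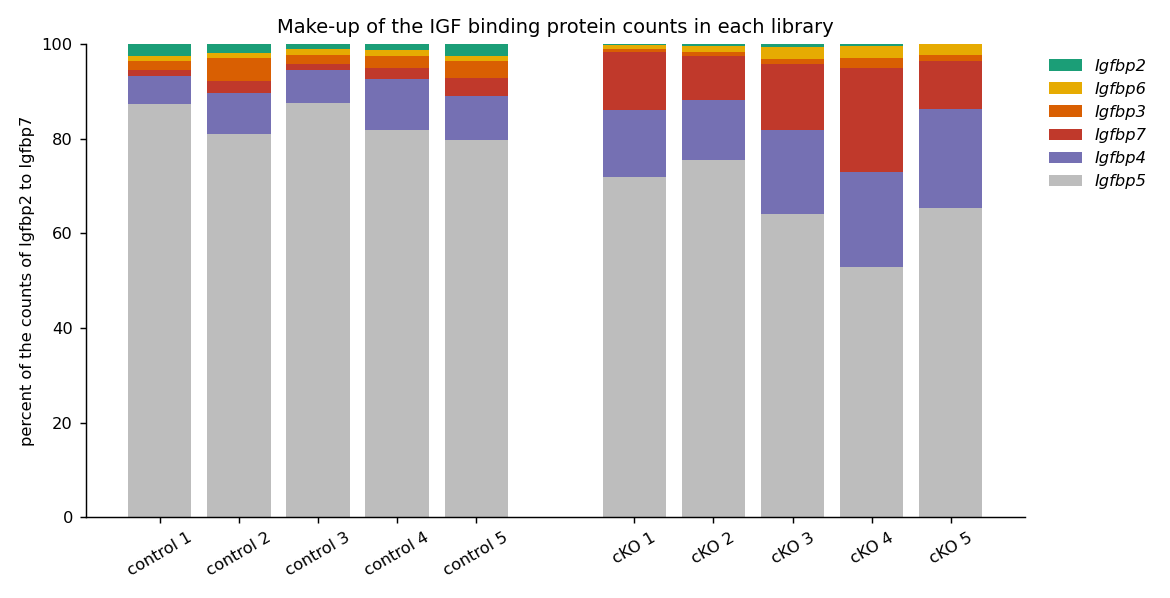
Percent of the summed counts of 6 IGF binding protein genes taken by each gene, as stacked bars for each control and Trpm7 cKO (cKO) library. Igfbp5 takes 79.8% to 87.5% in control and 52.9% to 75.6% in Trpm7 cKO libraries, where Igfbp4 and Igfbp7 take more.

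Each molecule gives 1 count whatever the length of its transcript, so that levels of different genes were set beside each other in normalized CPM without division by length. In control libraries the order of the means was Igfbp5, Igf2r, Igf1r, Igfbp4, Irs2, Igfbp7, Igfbp2, Igf1, Irs1 and Igf2. Neighbours in this order whose libraries overlapped were Igf1r and Igfbp4, Irs2 and Igfbp7, Igfbp7 and Igfbp2, Igfbp2 and Igf1, and Irs1 and Igf2. In Trpm7 cKO libraries the order was Igfbp5, Igf1r, Igfbp4, Igfbp7, Igf2r, Irs2, Igf1, Igfbp2, Irs1 and Igf2. There, Igfbp5 stood apart from Igf1r, and Igf1 from Igfbp2, and every other pair of neighbours overlapped.

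The pathway around these genes was followed in 53 further genes, of which 48 had a count and 32 were tested. Of the 32, 16 were higher, against 24.6% of all genes tested, 4 were lower, against 24.1%, and 12 did not pass the test, with a median log2 fold change of 0.46 beside -0.006 for all genes. Igfbp6, Igf2bp2, Htra1, Adam12 and Pik3cb passed the filter with all 5 Trpm7 cKO libraries but at most 2 control libraries above 13.4 CPM, and all but Pik3cb are among the 16. Scaled on satellite cell markers 10 were higher and 5 lower, beside 1216 and 2503 of all genes. Counted per 3000 sorted cells 2 were higher (Ctsd and Htra1) and 14 lower, beside 295 and 5270 of all genes. With the leukocyte covariate, which can hardly be separated from genotype, Foxo1, Gab1, Htra1 and Socs2 were the genes that passed the test. The genes named here are those below an adjusted p-value of 0.05 whose libraries did not overlap between genotypes, together with Insr and Igfbp3.

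Of 8 proteases and inhibitors of binding protein cleavage, 5 were tested and 4 were higher, against 24.6% of all genes, but Htra1 and Adam12 had 1 and 0 of 5 control libraries above 13.4 CPM and entered the test through the Trpm7 cKO libraries. Stc2, an inhibitor of that cleavage, did not pass the test (log2 fold change -0.26, adjusted p = 0.53). Htra1, a secreted protease that cuts binding proteins, was at 9.48 ± 2.72 normalized CPM in control and 39.7 ± 6.82 in Trpm7 cKO libraries (SD, n = 5 each), a log2 fold change of 2.09 (adjusted p = 2.4e-06). Ctsd, the lysosomal protease cathepsin D, which is abundant in macrophages, had a log2 fold change of 2.70 (adjusted p = 2.6e-05), which turned to -0.14 (adjusted p = 0.921) with the leukocyte covariate.

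Adam12 and Adam9, membrane metalloproteases of which ADAM12 cuts IGFBP3 and IGFBP5, had log2 fold changes of 1.42 and 1.07 (adjusted p = 0.00034 and 0.00075). That of Adam9 turned to -0.086 with the leukocyte covariate and to -0.047 per 3000 sorted cells. Of the other binding proteins, 2 of 5 were tested. Igfbp6 was higher (log2 fold change 0.99, adjusted p = 0.00349; -0.17 per 3000 sorted cells), and Igfbp3 was lower (-0.88, adjusted p = 0.025), although its libraries overlapped and the call was lost without control replicate 2 or 5 and without Trpm7 cKO replicate 1, 2 or 3 (adjusted p between 0.050 and 0.071).

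Of 13 adaptors and brakes of the receptors, 9 were tested, 4 were higher, against 24.6% of all genes, and 1 was lower, against 24.1%. Gab1, a docking protein for PI3K, was at 48.8 ± 6.89 normalized CPM in control and 112 ± 41.9 in Trpm7 cKO libraries (log2 fold change 1.25, adjusted p = 7.7e-05). Socs2, a feedback inhibitor of growth hormone signalling, was at 64.3 ± 8.78 and 181 ± 49.4 normalized CPM (log2 fold change 1.504, adjusted p = 2.6e-06). Grb10, an imprinted adaptor that restrains the insulin and IGF receptors, fell from 429 ± 47.7 to 224 ± 56.0 normalized CPM (log2 fold change -0.90, adjusted p = 0.00011), and with the leukocyte covariate it was at -0.14 (adjusted p = 0.916). The SDs here are over 5 libraries per genotype.

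H19, the imprinted long non-coding RNA that shares its enhancers with Igf2, showed the lowest log2 fold change of the pathway list. Its counts were 439, 273, 428, 609 and 224 in control and 43, 45, 13, 35 and 8 in Trpm7 cKO replicates 1 to 5. The normalized level was 410 ± 144 CPM in control and 62.4 ± 17.9 CPM in Trpm7 cKO libraries (SD, n = 5 each), a log2 fold change of -2.64 (SE 0.25, adjusted p = 1.9e-07). With the leukocyte covariate it was -0.78 and did not pass the test (adjusted p = 0.545). H19 lies on chromosome 7, from 142575529 to 142578143, within the same imprinted domain as Igf2. Igf2bp2, an RNA-binding protein named for its binding of Igf2 mRNA, was higher, at 13.6 ± 2.70 against 28.2 ± 11.1 normalized CPM (log2 fold change 0.98, adjusted p = 0.00722), and -0.19 per 3000 sorted cells.

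Downstream of the adaptors, 13 of 17 genes of PI3K, AKT and FOXO were tested, 6 were higher, against 24.6% of all genes, and 1 was lower, against 24.1%. The 2 AKT kinases moved in opposite directions. Akt1, which is tied to growth and survival, fell from 416 ± 16.8 to 178 ± 62.6 normalized CPM (log2 fold change -1.18, adjusted p = 2.5e-05), and Akt2, which is tied to the insulin response, rose from 62.4 ± 7.64 to 115 ± 23.0 normalized CPM (log2 fold change 0.85, adjusted p = 0.0003). There were 5.62 to 8.25 Akt1 counts per Akt2 count in control libraries and 0.926 to 2.58 in Trpm7 cKO libraries, without overlap, a ratio chosen after its values were seen. Per 3000 sorted cells Akt2 turned to -0.31 (adjusted p = 0.445).

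Pik3r1, the regulatory subunit of PI3K, was at 53.8 ± 10.9 and 122 ± 37.4 normalized CPM (log2 fold change 1.12, adjusted p = 8.9e-05). Foxo1 and Foxo3, transcription factors that AKT holds in check, had log2 fold changes of 1.52 (adjusted p = 8.8e-07) and 1.15 (adjusted p = 0.00013). Foxo1 was at 36.3 ± 2.73 normalized CPM in control and 103 ± 18.996 in Trpm7 cKO libraries, and Foxo3 at 42.3 ± 12.4 and 95.1 ± 17.9 (SD, n = 5 each). Per 3000 sorted cells Foxo3 was at -0.014 and Pik3r1 at -0.081, and 15.5% of the final 31-base stretches of Foxo1 also occur in other transcripts.

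**Figure D4:**
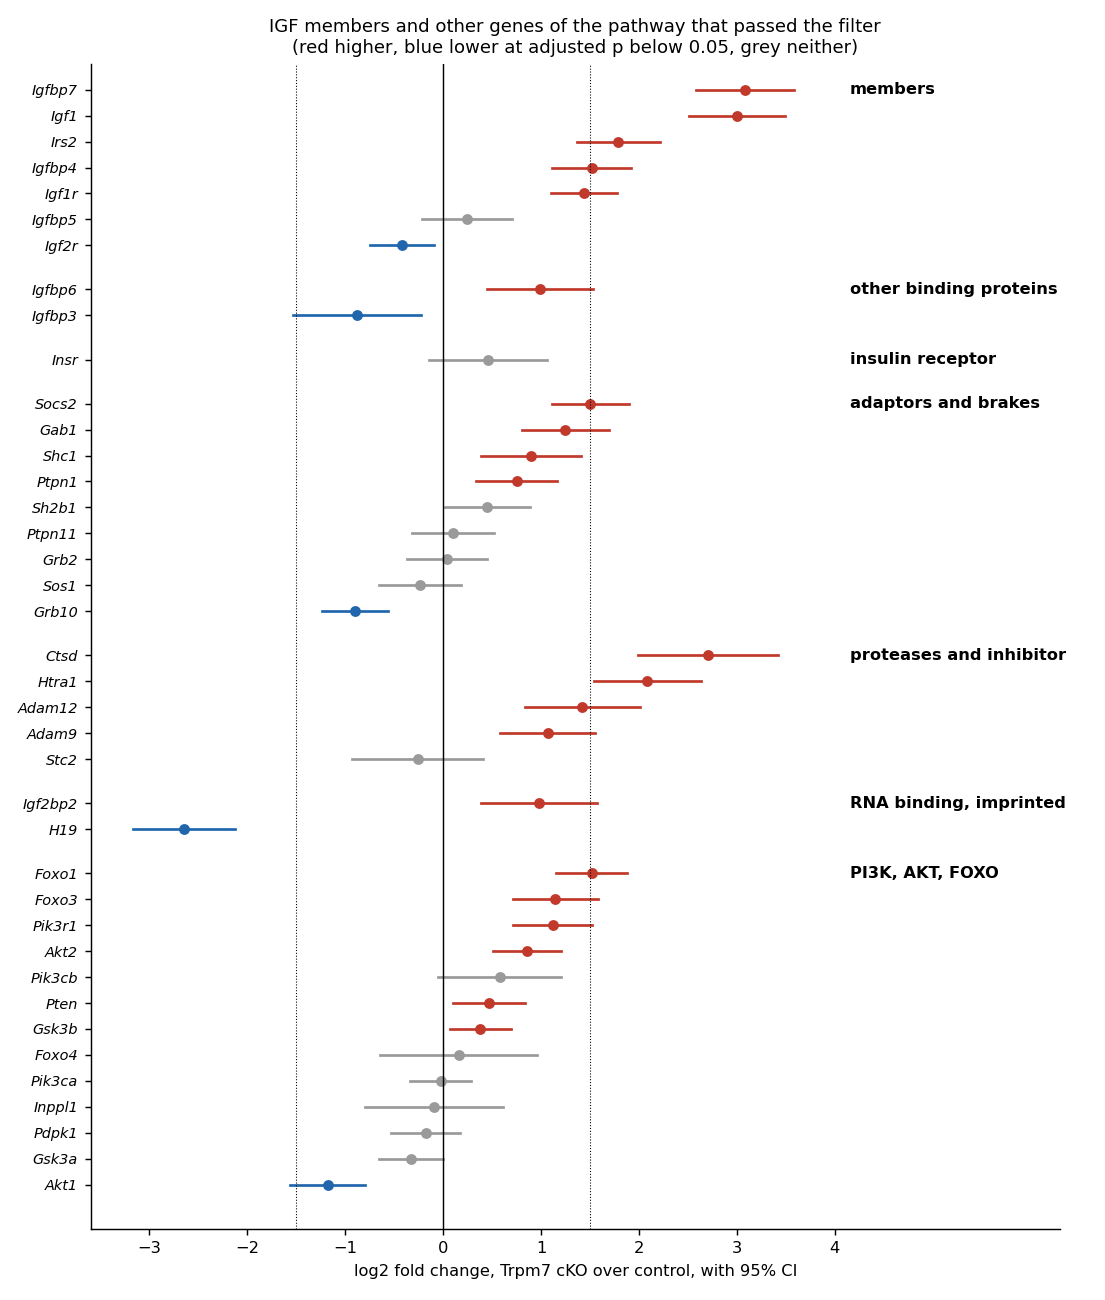
Log2 fold change (point) and 95% CI (line) of the 7 tested IGF genes and the 32 tested genes of the pathway, grouped by role, with dotted lines at 1.5 in either direction. Red and blue points passed an adjusted p-value of 0.05. Igfbp7 and Igf1 lie farthest to the right at 3.08 and 3.00 and H19 farthest to the left at -2.64. On other scales the sign of some points turns, among them Igfbp5, Igfbp6, Insr, Adam9, Igf2bp2, Pik3r1, Akt2 and Foxo3 per 3000 sorted cells and Igf2r, Insr, Adam9 and Ctsd with the leukocyte covariate.

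Genes of like pattern were sought by the mean absolute difference of centred log2 CPM over the 10 libraries, a value that falls to 0 for the same profile. Nearest to Igf1 were Tgm2 (0.194), Tnfaip2 (0.208) and Ier3 (0.252). Igf1r was followed most closely by Fosl2 (0.102), Klf4 (0.116) and Fgfr1 (0.119), and Irs2 by Brd2 (0.149), Thsd4 (0.169) and Nfatc2 (0.172). Among the binding proteins, Igfbp4 was nearest to Myd88 (0.158), Nr3c1 (0.158) and Trim2 (0.178), and Igfbp7 to Nrep (0.245), Col4a1 (0.258), a chain of basement membrane collagen, and Trim30a (0.272). Igfbp5 was nearest to Ipo4 (0.149), Fam168a (0.150) and Bcor (0.161), and Igf2r to Cisd2 (0.124), Txlng (0.130) and Cacna2d1 (0.131).

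Among the IGF genes themselves, Igf1r and Irs2 had the most alike profiles (0.265), then Igf1r and Igfbp4 (0.315) and Igf1 and Igfbp7 (0.353), and the least alike were Igf2r and Igfbp7 (1.70). The points of such a comparison share library and depth, and the values are descriptions with no test.

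**Figure D5:**
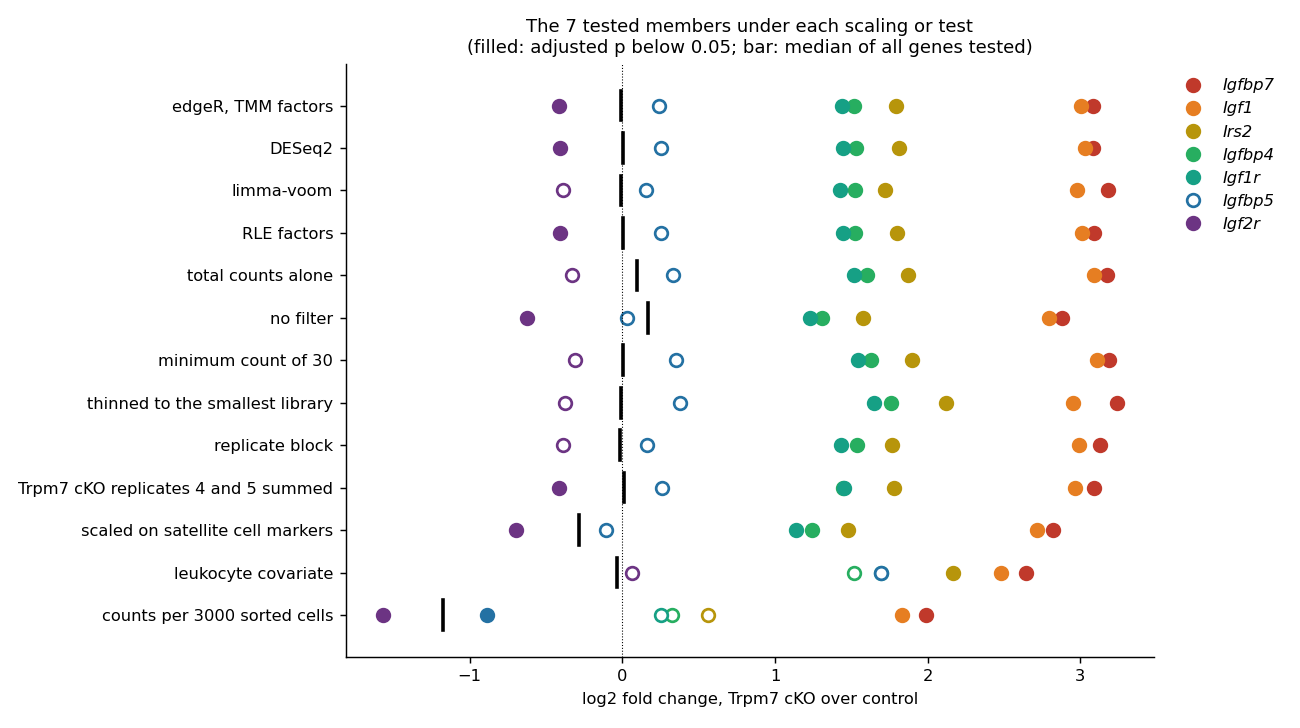
Log2 fold change of the 7 tested IGF genes under 13 scalings, filters or tests, filled where the adjusted p-value was below 0.05, with a black bar at the median of all genes. Igf1 and Igfbp7 lie to the right of the other IGF genes throughout, at 1.83 or more, and all points move left with the median when counts are taken per 3000 sorted cells, where Igfbp5 and Igf2r are lower. Igfbp5 also turns below 0 when scaled on satellite cell markers, and Igf2r turns above 0 with the leukocyte covariate.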

How the data were processed

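Counts of molecules were analysed for 5 control and 5 Trpm7 cKO libraries, grouped by the sample labels. Per the labels and methods, the authors extracted UMIs (UMI-tools 1.1.4), trimmed reads (Trim Galore 0.6.10), aligned them to GRCm38 (HISAT2 2.2.1), counted genes (featureCounts 2.0.6) and merged UMI duplicates. The deposited values are raw counts per gene, without normalization. The annotation release and strand setting are not given in the sources used here. Of 24620 entries, 12 repeated a symbol, and the entry with the larger total was kept.

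The 10 IGF genes, the pathway and marker lists and the tests were chosen with earlier results of these data known. The main fit used edgeR 4.0.16 in R 4.3.3: filterByExpr (minimum count 10, minimum total 15), TMM factors, a robust quasi-likelihood fit with genotype as the only term, and Benjamini-Hochberg adjustment over 7753 genes. It was tested on simulated counts first. Log2 CPM used a prior count of 2. Alternatives were DESeq2 1.42.0, limma-voom (limma 3.58.1), other scalings and filters, thinning to 205986 counts, a replicate block, a leukocyte covariate and each library left out in turn. Trpm7 cKO replicates 4 and 5, whose labels share a number of unstated meaning, were also summed into 1 sample, an alternative chosen after seeing the data. Of 20 library pairs within a genotype, all differed by more than counting noise (chi-square per degree of freedom of at least 1.47). Named genes were the IGF genes, pathway genes below an adjusted p-value of 0.05 without overlap, defining markers and, for each tested IGF gene, the 3 genes of most like pattern. Positions and shared sequence came from GENCODE M21, where 23986 symbols were found, and promoter windows from RefSeq (GRCm38.p6), with motifs searched on both strands. Protein sequences were not used here.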

Additional observations from a re-analysis of the deposited data

Results flagged for a closer look

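Each group of 5 libraries was searched for a library whose gap to its nearest neighbour was a large share of the range, over 68 groups of values, and 3 stood apart, where chance flags about 1 group in 20. Igf2bp2 was at 47.5 normalized CPM in Trpm7 cKO replicate 3, beside 19.9 to 25.9 in the other Trpm7 cKO libraries. Pik3r1 was at 188 normalized CPM in Trpm7 cKO replicate 5, the smallest library, beside 99.4 to 118 in the others. The summed erythroid markers were at 178 normalized CPM in control replicate 5, beside 1.99 to 23.8 in the other control libraries and 146 to 3274 in the Trpm7 cKO libraries. That library also had the highest Igfbp7 level among controls, at 49.8 normalized CPM. No level of an IGF ligand, receptor, binding protein or adaptor, and none of the 3 count ratios searched, stood apart in this way. Igf2, with at most 2 counts in a library, was not searched.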

How the results depend on the processing

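Igf1 and Igfbp7 kept their direction and an adjusted p-value below 0.05 in all 22 alternatives each, with log2 fold changes of 1.83 to 3.15 and 1.99 to 3.41. Counted per 3000 sorted cells, Igf1r (0.25, adjusted p = 0.538), Igfbp4 (0.33, adjusted p = 0.423) and Irs2 (0.56, adjusted p = 0.170) lost the call, and Igfbp5 turned to -0.89, Igfbp6 to -0.17, Insr to -0.68, Adam9 to -0.047, Igf2bp2 to -0.19, Pik3r1 to -0.081, Akt2 to -0.31 and Foxo3 to -0.014. Igfbp5 also turned to -0.11 when scaled on satellite cell markers, and with the leukocyte covariate Igf2r turned to 0.063, Insr to -0.34, Adam9 to -0.086 and Ctsd to -0.14. The cause of these turns was not tested, except that counts per sorted cell carry the lower totals of Trpm7 cKO libraries by construction. The leukocyte covariate does not overlap between genotypes, so that calls kept, lost or turned under it cannot be assigned to the covariate or to genotype.

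With counts per 3000 sorted cells, 144 genes were higher and 2529 lower at both thresholds (main 658 and 274), 295 and 5270 at the adjusted p-value alone (main 1908 and 1866), 2 IGF genes were higher and 3 lower (main 5 and 1), 2 and 2 at both thresholds (main 4 and 0), and 2 pathway genes were higher and 14 lower (main 16 and 4). With scaling on satellite cell markers, 1216 genes were higher at the adjusted p-value, 506 lower at both thresholds, 10 pathway genes higher, 2 IGF genes lower, and 2 higher and 1 lower at both thresholds. Without a filter, 1813 genes were higher and 623 lower at both thresholds, 2881 higher at the adjusted p-value, 7 pathway genes lower, 2 IGF genes lower and 1 at both thresholds, Igfbp2. With a minimum count of 30, these were 325 and 148 at both thresholds and 1245 and 1203 at the adjusted p-value, and with thinned counts 297 and 157, and 921 and 906, with 8 pathway genes higher. With the leukocyte covariate they were 324 and 101, and 325 and 103, with 4 pathway genes higher and 0 lower. A log2 threshold of 1 gave 1144 higher and 782 lower. The count of IGF genes lower was 0 with total counts alone, limma-voom, a minimum count of 30, thinning, the replicate block and the leukocyte covariate, where Igf2r lost its call, and 2 with Trpm7 cKO replicates 4 and 5 summed, where Igfbp2 entered (1 at both thresholds). Leaving out 1 library gave 0 to 2 IGF genes lower, 0 to 1 at both thresholds, and 244 to 416 genes lower at both thresholds, the highest without Trpm7 cKO replicate 4. Igfbp2 entered whenever a Trpm7 cKO library was left out and never when a control library was. The filter asks for 4 libraries in either case. Its CPM limit follows the median library total and is lower without a Trpm7 cKO library and higher without a control library.

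No pairing of libraries by replicate number was seen: deviations of same-numbered libraries correlated between -0.118 and 0.181, and 1 of 5 correlated best with its own number. With 5 pairs, these values cannot show that the libraries were not paired. With the replicate number as a block, Igf2r was at -0.39 (adjusted p = 0.064), and the other 6 tested IGF genes kept their side of the threshold. Depth limits Igf2, Irs1 and Igfbp2, and a library's floor of 3 counts was 2.73 to 14.6 CPM.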

Other observations

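Airn, the non-coding RNA that overlaps Igf2r on the opposite strand and is known to silence it on the paternal chromosome, was below the filter and was looked at after its values were seen. Its counts were 7, 9, 11, 9 and 5 in control replicates 1 to 5 and 18, 13, 5, 4 and 2 in Trpm7 cKO replicates 1 to 5. The normalized level was 8.57 ± 2.32 CPM in control and 18.6 ± 10.5 CPM in Trpm7 cKO libraries (SD, n = 5 each). Trpm7 cKO replicates 1, 2 and 3 lay above all control libraries and replicates 4 and 5 within their range, and the exact permutation test gave p = 0.0794 (two-sided). In the edgeR fit without a filter, Airn passed the threshold, with a log2 fold change of 0.97 (CI 0.22 to 1.73, adjusted p = 0.046), so that the 2 tests gave different calls.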
